A study of Mus musculus with 32 samples.

Results

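HL-1 cells, a mouse line that the labels call cardiomyocytes, were kept in medium taken from AML12 cells, a mouse hepatocyte line, and their total RNA was sequenced at 16 h. The comparison uses 8 of the 32 libraries of the series, chosen by the labels. In the 4 CM (conditioned medium) libraries the AML12 cells that gave the medium had been synchronized with DEX, the usual short name of dexamethasone, a synthetic glucocorticoid that sets the clocks of cultured cells to a common phase. In the 4 control libraries the medium also came from AML12 cells, without DEX synchronization, so both groups received medium from hepatocytes and differ in how those hepatocytes were treated. The 8 HL-1 libraries of 28 h, with the same pair of media and 4 libraries each, and the 4 DEX and 4 control libraries of AML12 cells at 17 h are used beside them. The labels do not give the event from which the hours are counted, whether DEX was still present in the transferred medium, or how the 4 libraries of a group were obtained. The p-values below measure the spread between these libraries, which may be technical.

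The circadian clock of mammalian cells is a feedback loop of transcription. CLOCK and BMAL1, the product of Arntl, bind E-box elements and switch on the Per, Cry, Nr1d, Dbp and Tef genes. PER and CRY proteins then inhibit CLOCK and BMAL1, and REV-ERB proteins, made from Nr1d1 and Nr1d2, repress Arntl, so that Arntl runs opposite in phase to the genes it activates. DBP, TEF and HLF act on D-box elements of a further set of genes, where NFIL3 opposes them. In heart muscle and liver this loop gives daily rhythms to metabolism and growth, and glucocorticoids act on it through Per1 and Per2.

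Promoters are shown of 5 genes that were higher in CM libraries, each picked because it holds at least 1 of these elements. Tef, Per3, Cry1 and Ciart are core clock genes, and Coq10b was chosen outside that list after its values were seen. Of 8 risen core clock genes with a promoter, 5 held an E-box and 1 a D-box, so some held neither. Each promoter shown is the 250 bases before the RefSeq start of the gene on build GRCm38.p6, read 5′ to 3′ on the gene's strand, with an E-box (CACGTG) or D-box (TTATGTAA or its reverse TTACATAA) in capitals. Tef is shown at chr15:81802423-81802672 on the plus strand (the first of its 2 starts in the table), Per3 at chr4:151044666-151044915 on the minus strand, Cry1 at chr10:85185055-85185304 on the minus strand, Ciart at chr3:95882229-95882478 on the minus strand and Coq10b at chr1:55052520-55052769 on the plus strand.
Tef: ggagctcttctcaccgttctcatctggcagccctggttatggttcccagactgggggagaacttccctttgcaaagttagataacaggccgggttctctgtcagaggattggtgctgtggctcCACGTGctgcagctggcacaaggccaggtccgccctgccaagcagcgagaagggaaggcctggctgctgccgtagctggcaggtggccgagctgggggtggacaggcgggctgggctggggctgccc
Per3: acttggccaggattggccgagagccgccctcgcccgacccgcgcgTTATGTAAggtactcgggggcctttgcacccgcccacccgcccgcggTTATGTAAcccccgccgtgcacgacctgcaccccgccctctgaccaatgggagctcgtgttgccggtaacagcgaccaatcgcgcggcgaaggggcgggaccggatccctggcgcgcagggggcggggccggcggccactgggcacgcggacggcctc
Cry1: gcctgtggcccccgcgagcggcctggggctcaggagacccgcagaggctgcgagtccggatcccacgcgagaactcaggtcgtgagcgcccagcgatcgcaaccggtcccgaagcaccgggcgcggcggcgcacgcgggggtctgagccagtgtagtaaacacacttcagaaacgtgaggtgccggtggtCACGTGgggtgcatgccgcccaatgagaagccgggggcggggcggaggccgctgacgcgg
Ciart: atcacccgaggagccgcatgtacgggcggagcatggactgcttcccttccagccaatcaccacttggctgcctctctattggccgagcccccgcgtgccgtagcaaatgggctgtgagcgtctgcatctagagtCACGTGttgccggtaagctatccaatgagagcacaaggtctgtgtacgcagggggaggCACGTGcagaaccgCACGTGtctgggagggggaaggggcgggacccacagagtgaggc
Coq10b: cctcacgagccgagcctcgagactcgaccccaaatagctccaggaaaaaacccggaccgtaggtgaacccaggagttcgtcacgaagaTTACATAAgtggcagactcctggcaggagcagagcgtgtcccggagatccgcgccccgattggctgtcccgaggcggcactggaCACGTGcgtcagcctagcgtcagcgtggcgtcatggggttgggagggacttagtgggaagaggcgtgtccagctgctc
The Tef E-box begins 127 bases before the RefSeq start used here and that of Cry1 60 bases before its own. The GENCODE annotation starts Tef at chr15:81802421, so there the window shown lies inside the gene. Ciart has 3 E-boxes, which begin 116, 58 and 44 bases before the start. Per3 has 2 D-boxes in the same orientation, which begin 205 and 158 bases before the start, and Coq10b has a reverse D-box and an E-box, which begin 162 and 78 bases before it. Over the table of 32851 promoters, 6.02% held an E-box and 0.819% a D-box in the same window, with both strands searched, and neither motif contains the other.

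The 8 libraries held 15.7 to 19.3 M counts each. Totals were 18.6 ± 0.606 M in CM libraries and 16.3 ± 0.722 M in control libraries (SD, n = 4 each), and the groups did not overlap (two-sided exact permutation p = 0.0286, the smallest that 4 against 4 allows). The mitochondrial share of counts was 2.70 ± 0.139% in CM and 2.62 ± 0.102% in control libraries (exact permutation p = 0.429). Control replicate 3 stood apart from the other control libraries, at 8.05 to 16.6 against them and 2.73 to 5.58 among them, where the values are chi-squares of counts over genes divided by the degrees of freedom. CM replicate 2 stood apart less, at 3.03 to 7.24 against 2.12 to 3.74. With both left out, 214 genes were called, 192 of them among the 294 of the full comparison and all of these 192 in the same direction. Control replicate 1, which was kept there, had 4.72 to 16.6 against the other control libraries, with 2.73 to 9.78 among those. The value of 16.6 was its distance from control replicate 3.

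The labelled cell type was checked against defining markers. Among cardiac markers, Tbx5, Hand2, Myl7 and Pln had 0 counts in all 8 libraries, and Myh6 had a single nonzero library, at 0.0133 ± 0.0266 CPM over the CM group. Nppa, the atrial natriuretic peptide gene, averaged 0.0265 ± 0.0306 CPM in CM and 0 in control libraries, and Actc1, cardiac alpha-actin, 0.0529 ± 0.0753 CPM in CM and 0.0156 ± 0.0312 CPM in control libraries. Other cardiac genes had counts in every library: Gata4 averaged 21.6 ± 2.96 CPM in CM and 21.0 ± 1.91 CPM in control libraries, Mef2c 11.4 ± 1.58 CPM in CM and 10.3 ± 0.431 CPM in control libraries, and Nkx2-5 3.47 ± 1.253 CPM in CM and 2.76 ± 0.980 CPM in control libraries, and Des and Tnnt2 also had counts throughout. In AML12 control libraries of 17 h, Gata4 averaged 21.3 CPM, Nkx2-5 3.76 CPM and Tnnt2 51.5 CPM. Counts of these genes therefore do not set HL-1 apart from that hepatocyte line. Mef2c averaged 0.0325 CPM and Des 2.76 CPM in the same AML12 libraries. Of 22 cardiac transcription factor genes, 8 were under 1 CPM at 16 h. Of the 29 genes on the sarcomere and natriuretic peptide list, 19 were under 1 CPM at 16 h. Skeletal muscle determination genes, chosen after their values were seen, had counts in every library: Myod1 averaged 30.2 ± 3.19 CPM in CM and 22.7 ± 3.40 CPM in control libraries and Myf5 35.1 ± 0.772 CPM in CM and 27.6 ± 2.54 CPM in control libraries. Pax7 averaged 0.0133 ± 0.0266 CPM in CM and 0.0161 ± 0.0323 CPM in control libraries, and Myog 0.0410 ± 0.0274 CPM in CM and 0.0156 ± 0.0312 CPM in control libraries. The line is called HL-1 below, as labelled, and the markers at or near 0 stand beside every result. Alb and Hnf4a, which mark hepatocytes, and Epcam had 0 counts in all 8 libraries.

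Few genes changed with the medium from synchronized hepatocytes, and most changes were small. The quasi-likelihood fit of edgeR, run over 14450 genes, called 294 at an adjusted p of 0.05 (2.03%), 120 of them higher in CM libraries (0.83%) and 174 lower (1.2%). Log2 changes below are of CM over control with their SE, and levels are CPM, counts relative to a fixed total of the TMM-scaled library, as mean ± SD over 4 libraries or library by library. The median change of a called gene was 1.22-fold, and 5 rose and 11 fell by at least 2-fold. Of the 294, 273 had CM and control libraries that did not overlap, against 982 such genes among all tested (6.8%), with 3.28% all above and 3.52% all below. In plain terms, 9 of 19 core clock genes, the imprinted RNA H19, 3 of 12 tested acute-phase and complement genes (Lcn2, C3 and Serpina3n) and the cardiac troponin T gene were higher, and the clock gene Arntl, the small matrix proteoglycan gene Dcn and the proliferin gene Prl2c3 were lower. The median log2 fold change over all tested genes was 0.0046.

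**Figure D1:**
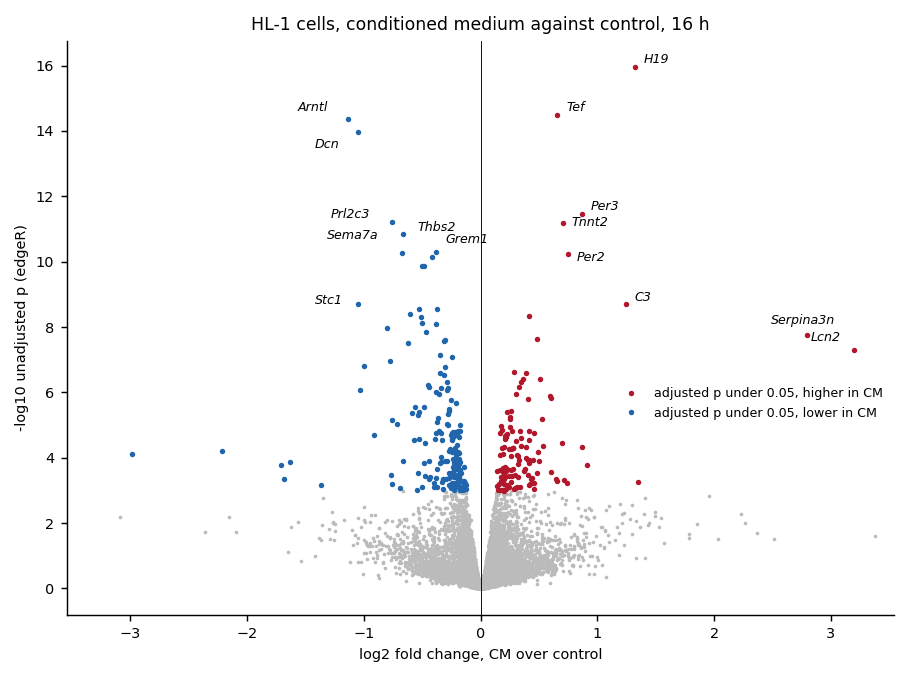
Each point is 1 of the 14450 genes tested, with its log2 fold change of CM over control at 16 h on the horizontal axis and the −log10 of its unadjusted edgeR p on the vertical axis. Red and blue points are the 120 genes called higher and the 174 called lower, most of them within 1 log2 unit of 0, with H19, Tef, Arntl and Dcn at the top.

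Most clock genes that changed rose, and Arntl and its partner Clock fell. Of 19 core clock genes tested, 9 rose and 2 fell, against the 2.03% of all tested genes that were called in either direction, and the median log2 fold change over the 19 was 0.33. Per3, a period gene, had 40.0, 37.4, 43.2 and 41.4 CPM in the CM libraries, against 21.3, 23.0, 21.2 and 23.3 CPM in the control libraries (log2 change 0.87 ± 0.069, adjusted p = 9.85e-09). Per2 had 45.2, 47.9, 50.9 and 50.3 CPM in CM, against 24.7, 31.5, 29.0 and 30.5 CPM in control libraries (log2 change 0.75 ± 0.068, adjusted p = 7.76e-08). In both period genes the lowest CM library lay above the highest control library. Tef, which encodes a D-box activator, had 182, 184, 186 and 188 CPM in CM libraries, against 115, 122, 115 and 119 CPM in control libraries (log2 change 0.65 ± 0.038, adjusted p = 2.03e-11). Dbp, the related albumin D-box binding protein gene, had 17.4, 26.5, 17.5 and 23.1 CPM in CM and 9.50, 14.3, 13.4 and 15.0 CPM in control libraries (log2 change 0.70 ± 0.14, adjusted p = 0.00435). Tef libraries were tightly grouped, whereas those of Dbp spread more widely within each group and still did not overlap.

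Repressors of the loop followed. Nr1d2, which encodes REV-ERB beta, had 128, 122, 134 and 125 CPM in CM libraries, against 96.5, 99.1, 88.1 and 98.2 CPM in control libraries (log2 change 0.41 ± 0.047, adjusted p = 3.37e-06). Cry1, a cryptochrome gene, had 33.2, 33.4, 31.3 and 32.8 CPM in CM and 25.4, 27.2, 25.0 and 25.4 CPM in control libraries (log2 change 0.34 ± 0.069, adjusted p = 0.00514). Each of the 4 CM libraries exceeded every control library for both genes. Per1, a period gene that glucocorticoids induce, averaged 31.3 ± 2.91 CPM in CM and 23.6 ± 2.43 CPM in control libraries (log2 change 0.41 ± 0.089, adjusted p = 0.0110). Bhlhe41, an E-box repressor also called DEC2, averaged 32.6 ± 1.51 CPM in CM and 25.9 ± 2.10 CPM in control libraries (log2 change 0.33 ± 0.072, adjusted p = 0.0109). Ciart, a repressor of CLOCK and BMAL1, had 10.6, 9.42, 11.7 and 12.1 CPM in CM libraries, against 7.17, 9.57, 7.87 and 7.36 CPM in control libraries (log2 change 0.46 ± 0.12, adjusted p = 0.0356). Its groups overlapped in 1 pair, since CM replicate 2 was just below control replicate 2. The Per1 call was lost without CM replicate 2 or 4 or control replicate 1. Per1 also lost it without control replicate 3 and CM replicate 2 together (adjusted p 0.0523 to 0.0631 over all of these). The Bhlhe41 call was lost without CM replicate 3 or control replicate 2 or 3. Bhlhe41 also lost it without control replicate 3 and CM replicate 2 together (adjusted p 0.0518 to 0.0675 over all of these). The Ciart call was lost without CM replicate 1, 3 or 4 or control replicate 1, 3 or 4. Ciart also lost it in a fit of only the 8 libraries (adjusted p 0.0666 to 0.149 over all of these).

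Arntl (chr7:113207465-113314126 on GRCm38, plus strand), the gene for BMAL1, was the strongest fall of the set. It had 8.41, 7.90, 7.41 and 8.38 CPM in CM libraries, against 17.0, 17.9, 17.2 and 18.6 CPM in control libraries (log2 change -1.14 ± 0.067, adjusted p = 2.03e-11). Every CM library was at about the same low level and the groups lay far apart. Clock, its partner, averaged 155 ± 10.6 CPM in CM and 176 ± 3.96 CPM in control libraries, a small change (log2 change -0.18 ± 0.045, adjusted p = 0.0299). The Clock call was lost without CM replicate 2 or 4 or control replicate 1, 2 or 4. Clock also lost it without control replicate 3 and CM replicate 2 together or in a fit of only the 8 libraries (adjusted p 0.0501 to 0.111 over all of these). The other 8 core clock genes were not called with edgeR. Nfil3, the D-box repressor, averaged 14.6 ± 1.28 CPM in CM and 17.4 ± 0.876 CPM in control libraries (log2 change -0.26 ± 0.072, adjusted p = 0.0622), with CM libraries all below control libraries. Cry2 averaged 15.0 ± 1.49 CPM in CM and 12.6 ± 1.06 CPM in control libraries (log2 change 0.25 ± 0.090, adjusted p = 0.218). Bhlhe40, a paralog of Bhlhe41, averaged 91.4 ± 5.58 CPM in CM and 80.8 ± 4.43 CPM in control libraries (log2 change 0.18 ± 0.055, adjusted p = 0.113). Nr1d1, the gene for REV-ERB alpha, averaged 39.0 ± 2.35 CPM in CM and 35.7 ± 2.97 CPM in control libraries (log2 change 0.13 ± 0.064, adjusted p = 0.476). Nfil3 was called without CM replicate 3 or control replicate 3 (adjusted p 0.0186 and 0.0376), and Bhlhe40 without CM replicate 2 (adjusted p 0.0475). Hlf averaged 2.08 ± 0.410 CPM in CM and 2.18 ± 0.60 CPM in control libraries, and Npas2 and Rora were under 1 CPM on average in both groups.

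**Figure D2:**
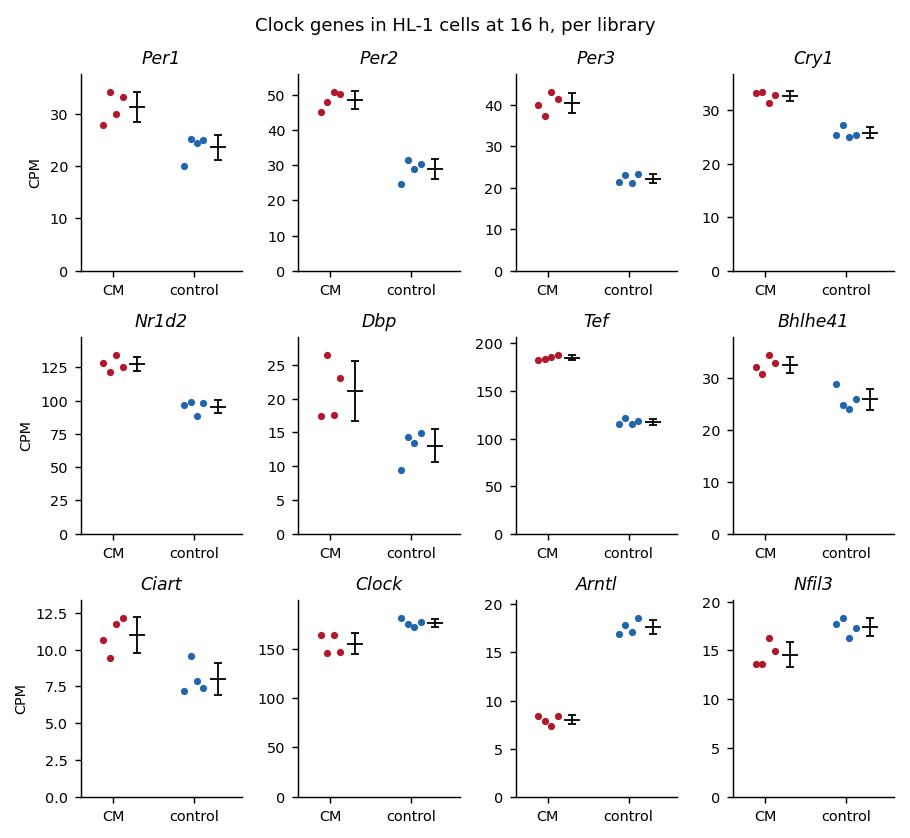
Each panel plots CPM of 1 clock gene in the 4 CM libraries (red, left) and the 4 control libraries (blue, right) at 16 h, with mean and SD in black and axes that start at 0. CM points lie above control points for Per1, Per2, Per3, Cry1, Nr1d2, Dbp, Tef and Bhlhe41, overlap in Ciart, and lie below them for Clock, Arntl and Nfil3.

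The same pair of media gave another clock pattern at 28 h, when 1 of the 19 genes rose (0.706% of all tested) and 5 fell (1.22%; 1.92% called in either direction). There Per2 averaged 11.0 ± 0.547 CPM in CM and 20.7 ± 1.57 CPM in control libraries (log2 fold change -0.91 ± 0.082, adjusted p = 7.00e-08), a fall. Per3 averaged 15.7 ± 1.69 CPM in CM and 24.2 ± 1.30 CPM in control libraries (-0.62 ± 0.074, adjusted p = 7.06e-06). Cry1 averaged 14.0 ± 1.33 CPM in CM and 21.4 ± 2.14 CPM in control libraries at 28 h (-0.61 ± 0.077, adjusted p = 1.55e-05). Tef averaged 62.1 ± 2.20 CPM in CM and 85.2 ± 3.68 CPM in control libraries (-0.45 ± 0.041, adjusted p = 7.00e-08). Nr1d2 averaged 47.7 ± 3.08 CPM in CM and 57.9 ± 1.62 CPM in control libraries (-0.28 ± 0.052, adjusted p = 0.00239). Arntl, the other way, averaged 50.9 ± 1.66 CPM in CM and 42.7 ± 0.646 CPM in control libraries (0.25 ± 0.050, adjusted p = 0.00433). All 6 genes thus changed sign between the times in these libraries. The difference between the effects, 28 h minus 16 h, was tested in the same edgeR fit. It was -1.66 ± 0.11 on the log2 scale for Per2 (adjusted p = 1.51e-10) and -1.49 ± 0.10 for Per3 (4.18e-10). Tef differed by -1.11 ± 0.056 (adjusted p = 1.66e-12) and Cry1 by -0.95 ± 0.10 (4.52e-06). For Nr1d2 the difference was -0.69 ± 0.070 (adjusted p = 1.38e-06) and for Arntl 1.39 ± 0.083 (4.90e-11). Dbp differed by -1.254 ± 0.22 (0.00400), with an effect at 28 h of -0.56 ± 0.17 that was not called (adjusted p = 0.102).

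Levels in the control libraries were not the same at both times: Arntl averaged 17.6 ± 0.742 CPM in control libraries of 16 h and 42.7 ± 0.646 CPM in those of 28 h. Cry2 differed between the times by -0.58 ± 0.13 (adjusted p = 0.0447), a call that was lost without any 1 of 13 libraries: all but CM replicate 1 at 16 h and, at 28 h, CM replicate 2 and control replicate 2 (adjusted p 0.0551 to 0.168). For Per1 the difference was -0.48 ± 0.12 (adjusted p = 0.150), for Bhlhe41 -0.44 ± 0.098 (0.0519), for Ciart -0.62 ± 0.17 (0.162) and for Clock 0.18 ± 0.064 (0.479), none of them called. Per1 was called in the difference without CM replicate 4 of 28 h (adjusted p 0.0494), Ciart without control replicate 2 of 28 h (0.0446), and Bhlhe41 without control replicate 1 of 16 h (0.0181) or control replicate 2 of 28 h (0.0278).

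**Figure D3:**
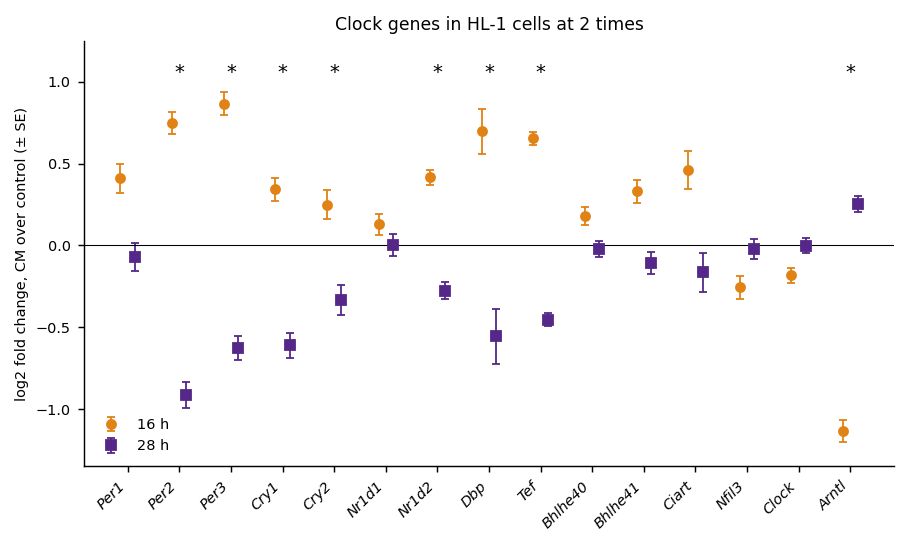
Log2 fold changes of CM over control with their SE (vertical axis) at 16 h (circles) and 28 h (squares) for 15 core clock genes, from the edgeR fit. Stars mark the 8 genes whose effects differed between the times at an adjusted p of 0.05; period, cryptochrome, Nr1d2, Dbp and Tef values lie above 0 at 16 h and below 0 at 28 h, and Arntl the reverse.

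Over all tested genes, 40 differed in effect between the times (0.277%), 29 of them also called at 16 h. Of the 294 calls at 16 h, 107 were called at 28 h as well (36.4% of the 16 h calls and 38.5% of the 278 calls at 28 h). Of these 107, 95 had the same direction, 32 higher and 63 lower at both times, and 12 had opposite directions. Wee1, the gene of a kinase that delays mitosis and a known clock output, had 80.6, 70.6, 71.0 and 75.5 CPM in CM libraries of 16 h, against 63.5, 63.3, 56.5 and 61.7 CPM in control libraries (log2 change 0.28 ± 0.057, adjusted p = 0.00583), and its effect differed at 28 h by -0.52 ± 0.085 (adjusted p = 0.00205). Coq10b, which encodes a coenzyme Q binding protein and carries both motifs printed above, averaged 32.0 ± 2.07 CPM in CM and 25.6 ± 1.93 CPM in control libraries (log2 change 0.32 ± 0.069, adjusted p = 0.00877), with a difference of -0.70 ± 0.10 (adjusted p = 0.000502). The Coq10b call was lost without CM replicate 4 (adjusted p 0.0564). Both genes had CM libraries all above control libraries at 16 h, and both were lower in CM libraries at 28 h (adjusted p 0.0468 for Wee1 and 0.00641 for Coq10b). Wee1 and Coq10b were chosen after their values were seen.

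Plat and Plau, genes of plasminogen activators, went the other way between the times. Spon2, Tinagl1 and Dusp27, outside that system, are given with them. Serpinb2 and Thbd, further genes of plasminogen and thrombosis, were lower at both times and are given below. Plat, tissue plasminogen activator, had 12.6, 13.7, 14.4 and 13.7 CPM in CM libraries, against 17.2, 17.8, 17.9 and 18.7 CPM in control libraries at 16 h (log2 change -0.39 ± 0.076, adjusted p = 0.00353), and averaged 75.7 ± 4.98 CPM in CM and 58.9 ± 5.13 CPM in control libraries at 28 h, a difference of 0.76 ± 0.096 (adjusted p = 6.13e-05). Plau, urokinase, averaged 44.4 ± 2.10 CPM in CM and 53.1 ± 1.32 CPM in control libraries at 16 h (log2 change -0.26 ± 0.053, adjusted p = 0.00598) and differed by 0.50 ± 0.074 SE at 28 h (adjusted p = 0.000440). Spon2, a matricellular protein gene, averaged 13.7 ± 1.30 CPM in CM and 16.4 ± 0.659 CPM in control libraries (log2 change -0.26 ± 0.069, adjusted p = 0.0401), with a difference of 0.52 ± 0.086 (adjusted p = 0.00221). Tinagl1, a basement membrane gene, averaged 30.5 ± 4.22 CPM in CM and 42.5 ± 6.00 CPM in control libraries (log2 change -0.48 ± 0.095, adjusted p = 0.00435), with a difference of 0.66 ± 0.13 (adjusted p = 0.0178). Dusp27 averaged 8.47 ± 0.432 CPM in CM and 10.6 ± 0.726 CPM in control libraries (log2 change -0.32 ± 0.086, adjusted p = 0.0475), with a difference of 0.56 ± 0.12 (adjusted p = 0.0260). Plat, Plau, Spon2, Tinagl1 and Dusp27 were all lower in CM at 16 h, and of these only Tinagl1 had groups that overlapped. The Spon2 call was lost without CM replicate 1, 3 or 4 or control replicate 1, 2, 3 or 4. Spon2 also lost it with limma-voom, with no filter on low counts, in a fit of only the 8 libraries or with replicate as a block (adjusted p 0.0549 to 0.175 over all of these). The Dusp27 call was lost without CM replicate 1, 2, 3 or 4 or control replicate 1, 2, 3 or 4. Dusp27 also lost it without control replicate 3 and CM replicate 2 together, with limma-voom, with no filter on low counts, in a fit of only the 8 libraries, with replicate as a block, with counts thinned to 1 depth or with totals in place of TMM (adjusted p 0.0504 to 0.170 over all of these). For Tinagl1 the difference was lost without control replicate 4 of 16 h or control replicate 1 of 28 h (adjusted p 0.0586 and 0.0607), and for Dusp27 without CM replicate 1 or 4 or control replicate 1 of 16 h, or CM replicate 1 or 4 or control replicate 1 or 3 of 28 h (adjusted p 0.0537 to 0.0753). Some genes were called in the difference without a call at 16 h: the chemokine gene Ccl2 averaged 91.5 ± 5.34 CPM in CM and 88.4 ± 9.41 CPM in control libraries at 16 h and 94.8 ± 14.7 CPM in CM and 147 ± 7.01 CPM in control libraries at 28 h (difference -0.68 ± 0.11, adjusted p = 0.00204). Cxcl1 differed by -0.53 ± 0.075 (adjusted p = 0.000303), Ptgs2, the inducible cyclooxygenase, by -0.52 ± 0.068 (0.000109) and Lox, a collagen crosslinking enzyme, by 0.33 ± 0.049 (0.000440).

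Among the largest rises, H19 (chr7:142575529-142578143, minus strand), an imprinted long noncoding RNA of growing and muscle tissue, had the smallest p of all genes tested. It had 191, 198, 196 and 201 CPM in CM libraries, against 81.5, 72.3, 84.5 and 76.6 CPM in control libraries (log2 change 1.32 ± 0.066, adjusted p = 1.57e-12), and was higher at 28 h too (0.94 ± 0.061, adjusted p = 3.37e-10). Each CM library had over 2 times the level of every control library. Lcn2, an iron-siderophore binding acute-phase gene, had 0.981, 2.23, 2.29 and 2.08 CPM in CM libraries, against 0.228, 0, 0.452 and 0.125 CPM in control libraries (log2 change 3.20 ± 0.41, adjusted p = 2.41e-05). These levels rest on 140 counts over the CM group and 13 over the control group, so the fold is imprecise. The groups did not overlap, a condition for being listed among the largest rises. Serpina3n, an acute-phase protease inhibitor, had 1.45, 1.85, 1.76 and 1.52 CPM in CM and 0.114, 0.0626, 0.323 and 0.437 CPM in control libraries, from 122 and 15 counts (log2 change 2.79 ± 0.34, adjusted p = 9.58e-06). C3, the central complement component, had 7.85, 11.4, 8.20 and 9.73 CPM in CM libraries, against 3.47, 4.07, 5.03 and 3.18 CPM in control libraries (log2 change 1.24 ± 0.14, adjusted p = 1.82e-06). With these 3, the acute-phase and complement list had 3 of 12 tested members higher and 0 lower, and a median log2 fold change of -0.0035 over the 12. Among all tested genes 0.83% were called higher and 1.2% lower.

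At 28 h Lcn2 averaged 1.59 ± 0.345 CPM in CM and 1.38 ± 0.0839 CPM in control libraries and Serpina3n 2.49 ± 0.308 CPM in CM and 1.747 ± 0.350 CPM in control libraries, without a call. The effect on Lcn2 differed between the times by -2.99 ± 0.53 (adjusted p = 0.00464) and that on Serpina3n by -2.29 ± 0.42 (adjusted p = 0.00728). C3 was still higher in CM at 28 h (0.67 ± 0.071, adjusted p = 9.87e-07). Further large rises at 16 h were in Angpt4, an angiopoietin gene (4.00 ± 0.740 CPM in CM and 2.19 ± 0.328 CPM in control libraries; log2 change 0.87 ± 0.18, adjusted p = 0.00545), and in Kcnj15, an inward rectifier potassium channel gene (3.74 ± 0.658 CPM in CM and 2.24 ± 0.371 CPM in control libraries; log2 change 0.74 ± 0.19, adjusted p = 0.0354). The Kcnj15 call was lost without CM replicate 1, 2 or 4 or control replicate 1, 2 or 4. Kcnj15 also lost it without control replicate 3 and CM replicate 2 together, with limma-voom or in a fit of only the 8 libraries (adjusted p 0.0541 to 0.143 over all of these).

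Among called genes of at least 1 CPM whose groups did not overlap, the largest falls beside Arntl included Dcn, Stc1, Glp1r, Cd53, Ppbp and Rgs16. Dcn, the collagen-binding proteoglycan decorin, had 11.2, 11.1, 11.7 and 9.78 CPM in CM libraries, against 22.6, 22.9, 22.9 and 22.2 CPM in control libraries (log2 change -1.05 ± 0.064, adjusted p = 3.86e-11). Stc1, the secreted hormone stanniocalcin, had 12.5, 11.5, 10.9 and 11.4 CPM in CM and 26.7, 23.0, 25.0 and 21.0 CPM in control libraries (log2 change -1.05 ± 0.11, adjusted p = 1.82e-06). In both, every CM library lay below every control library, a condition for being on this list. They were again lower at 28 h, Dcn by a log2 change of -1.06 ± 0.057 (adjusted p = 8.72e-12) and Stc1 by -0.71 ± 0.098 (adjusted p = 6.02e-05). Glp1r, the receptor of the incretin GLP-1, averaged 3.27 ± 0.756 CPM in CM and 6.70 ± 0.654 CPM in control libraries (log2 change -1.03 ± 0.16, adjusted p = 0.000237). Cd53, a tetraspanin best known from leukocytes, averaged 3.63 ± 0.406 CPM in CM and 7.28 ± 1.12 CPM in control libraries (log2 change -1.001 ± 0.14, adjusted p = 6.23e-05). Ppbp, a platelet chemokine gene, averaged 1.88 ± 0.306 CPM in CM and 3.55 ± 0.437 CPM in control libraries (log2 change -0.92 ± 0.17, adjusted p = 0.00283). Rgs16, a regulator of G protein signalling, averaged 4.76 ± 0.485 CPM in CM and 8.13 ± 1.06 CPM in control libraries (log2 change -0.77 ± 0.10, adjusted p = 4.72e-05). Their CM libraries lay wholly below their control libraries, which the choice of these genes required.

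The proliferin genes Prl2c3 and Prl2c2, of the prolactin family, fell. Prl2c3 had 183, 180.0, 182 and 166 CPM in CM libraries, against 318, 309.5, 276 and 299 CPM in control libraries (log2 change -0.76 ± 0.062, adjusted p = 1.32e-08). Prl2c2 averaged 136 ± 7.17 CPM in CM and 209.7 ± 18.3 CPM in control libraries (log2 change -0.62 ± 0.078, adjusted p = 1.49e-05). These paralogs are near identical, so how reads were divided between them is uncertain, and the same holds for Usp17la, a deubiquitinase gene of a repeated family (2.78 ± 0.235 CPM in CM and 4.71 ± 0.331 CPM in control libraries; log2 change -0.76 ± 0.13, adjusted p = 0.00133). Nrcam, a neuronal adhesion molecule gene, averaged 3.56 ± 0.384 CPM in CM and 5.83 ± 0.491 CPM in control libraries (log2 change -0.71 ± 0.13, adjusted p = 0.00173). Lvrn, an aminopeptidase gene, averaged 1.96 ± 0.402 CPM in CM and 3.33 ± 0.830 CPM in control libraries (log2 change -0.77 ± 0.18, adjusted p = 0.0235). The Lvrn call was lost without CM replicate 3 or 4 or control replicate 1. Lvrn also lost it in a fit of only the 8 libraries or with counts thinned to 1 depth (adjusted p 0.0643 to 0.141 over all of these).

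**Figure D4:**
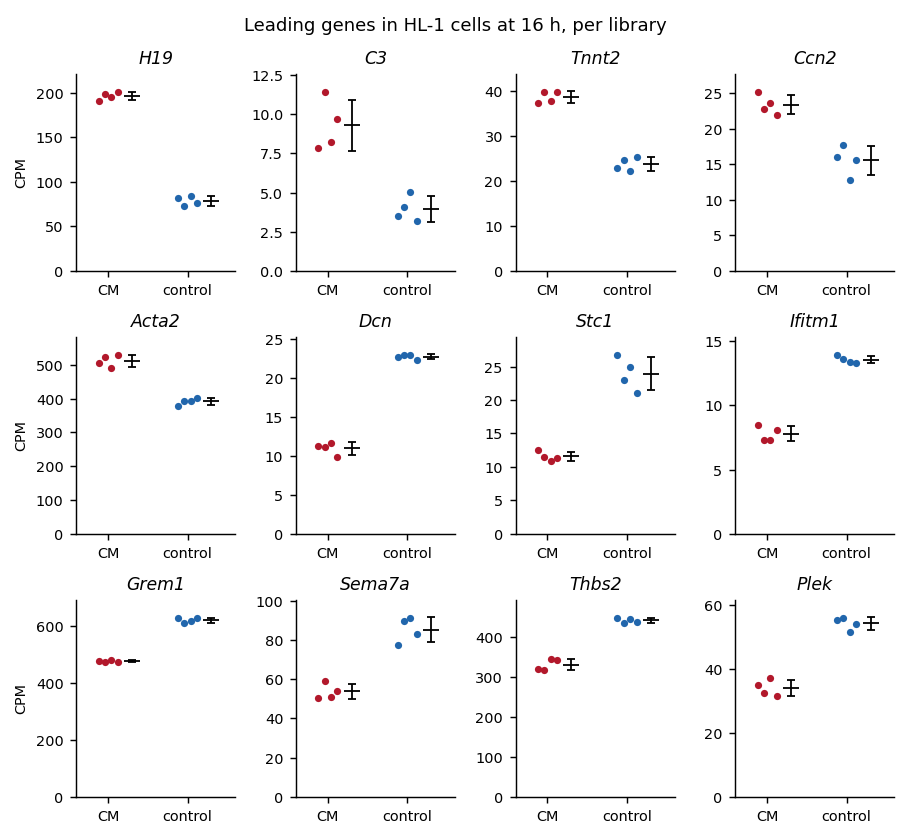
Each panel plots CPM of 1 gene in the 4 CM libraries (red, left) and the 4 control libraries (blue, right) at 16 h, with mean and SD in black and axes that start at 0. The first row and Acta2 are higher in every CM library, and the other 7 genes are lower in every CM library.

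Glucocorticoid-responsive genes were examined because the medium came from cells given DEX. Of 23 tested members, 5 rose and 1 fell, against 0.83% higher and 1.2% lower among all tested genes, and the list's median log2 fold change was 0.041. Fkbp5, a co-chaperone of the glucocorticoid receptor and a widely used target gene, had 81.6, 86.1, 79.6 and 91.8 CPM in CM libraries, against 62.7, 67.6, 68.6 and 68.8 CPM in control libraries (log2 change 0.34 ± 0.051, adjusted p = 0.000161). Tsc22d3, which encodes GILZ, averaged 42.0 ± 2.09 CPM in CM and 33.7 ± 2.79 CPM in control libraries (log2 change 0.31 ± 0.067, adjusted p = 0.00827). Pdk4, a brake on glucose oxidation that is also on the PPAR list, averaged 40.2 ± 1.6 CPM in CM and 33.2 ± 1.17 CPM in control libraries (log2 change 0.28 ± 0.056, adjusted p = 0.00583). Per1 and Lcn2, described above, were the other members that rose. Errfi1, a feedback inhibitor of EGF receptors, averaged 218 ± 7.33 CPM in CM and 256 ± 17.5 CPM in control libraries (log2 change -0.24 ± 0.045, adjusted p = 0.00330). Other classical targets did not pass, or were too low to test: Sgk1 averaged 103 ± 2.79 CPM in CM and 100.4 ± 5.48 CPM in control libraries and Zbtb16 0.0558 ± 0.0795 CPM in CM and 0.0768 ± 0.0945 CPM in control libraries. Nr3c1, the receptor gene itself, averaged 153 ± 4.49 CPM in CM and 154 ± 8.00 CPM in control libraries and was not called. The Tsc22d3 call was lost without control replicate 3 and CM replicate 2 together (adjusted p 0.111). The Pdk4 call was lost without control replicate 3 and CM replicate 2 together (adjusted p 0.0512). Without control replicate 3 and CM replicate 2 together, 2 members of the list were called higher. In AML12 cells at 17 h, DEX against control, Fkbp5 differed by 1.77 ± 0.056 SE (adjusted p = 1.40e-17) and Per1 by 1.65 ± 0.068 (adjusted p = 2.81e-15). Tsc22d3 differed there by 1.73 ± 0.049 (adjusted p = 1.82e-18) and Lcn2 by 0.23 ± 0.071 (adjusted p = 0.0130), and Pdk4 was not tested there. Sgk1, which was not called in HL-1, differed in AML12 by 2.32 ± 0.066 (adjusted p = 2.11e-18), and Errfi1, lower in HL-1, was higher in AML12 by 0.26 ± 0.065 (adjusted p = 0.00209). Zbtb16 averaged 13.1 ± 0.794 CPM in DEX libraries of AML12 and had 0 counts in their control libraries. The part of DEX itself in these changes was not tested.

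Of 32 genes on the G2 and mitosis list, 5 fell and 0 rose, against 1.2% lower and 0.83% higher among all tested genes. The other 27 were not called, 31 of the 32 had a log2 fold change below 0, and the list's median was -0.099. Aurkb, the chromosome passenger kinase, had 135, 140.0, 127 and 133 CPM in CM libraries, against 139, 160.2, 157 and 155 CPM in control libraries (log2 change -0.19 ± 0.042, adjusted p = 0.0114), with control replicate 1 inside the range of the CM libraries. Top2a, which disentangles chromosomes, averaged 1278 ± 72.4 CPM in CM and 1459 ± 75.7 CPM in control libraries (log2 change -0.19 ± 0.043, adjusted p = 0.0147). The spindle motor gene Kif11 averaged 285 ± 13.1 CPM in CM and 319.9 ± 6.92 CPM in control libraries (log2 change -0.16 ± 0.041, adjusted p = 0.0316). The cytokinesis gene Anln averaged 827 ± 31.7 CPM in CM and 916 ± 36.4 CPM in control libraries (log2 change -0.15 ± 0.037, adjusted p = 0.0326). The mitotic kinase gene Cdk1 averaged 379 ± 13.0 CPM in CM and 422 ± 11.2 CPM in control libraries (log2 change -0.15 ± 0.041, adjusted p = 0.0491). Ccnf, Ncaph and Spc25, mitotic genes outside the list that were chosen after their values were seen, also fell. Ccnf, a cyclin gene, averaged 105 ± 1.93 CPM in CM and 124 ± 6.70 CPM in control libraries (log2 change -0.24 ± 0.048, adjusted p = 0.00367). Ncaph, of the condensin complex, averaged 159.9 ± 3.11 CPM in CM and 182 ± 8.40 CPM in control libraries (log2 change -0.19 ± 0.040, adjusted p = 0.00768). Spc25, of the kinetochore, averaged 105 ± 3.91 CPM in CM and 124 ± 6.77 CPM in control libraries (log2 change -0.23 ± 0.051, adjusted p = 0.0114). The Aurkb call was lost in a fit of only the 8 libraries (adjusted p 0.0527). The Top2a call was lost without CM replicate 2 or control replicate 4. Top2a also lost it in a fit of only the 8 libraries (adjusted p 0.0527 to 0.0754 over all of these). The Kif11 call was lost without CM replicate 2 or 4 or control replicate 1, 2 or 4. Kif11 also lost it without control replicate 3 and CM replicate 2 together (adjusted p 0.0573 to 0.106 over all of these). The Anln call was lost without CM replicate 2 or 4 or control replicate 1, 2 or 4. Anln also lost it in a fit of only the 8 libraries (adjusted p 0.0628 to 0.112 over all of these). The Cdk1 call was lost without CM replicate 2, 3 or 4 or control replicate 1, 2 or 4. Cdk1 also lost it without control replicate 3 and CM replicate 2 together or with totals in place of TMM (adjusted p 0.0533 to 0.125 over all of these). The count of 5 was 1 without CM replicate 2 or control replicate 4, 2 without CM replicate 4 or control replicate 2, 3 without control replicate 1, and 3 without control replicate 3 and CM replicate 2 together. Of 32 S phase genes, 0 were called with edgeR (4 at an unadjusted p under 0.05) and 1 with DESeq2, and their median was 0.062. Of these S phase genes, 26 had a log2 fold change above 0 and 6 below it. They summed to 5354.7 to 5445.5 CPM in CM libraries, against 5189.1 to 5321.4 CPM in control libraries. The mitosis list's summed level was 9885 to 10591 CPM in CM libraries, against 10749 to 11162 CPM in control libraries. Of the 32 mitosis genes, 15 had an unadjusted p under 0.05. A list can be nearly all of 1 sign without a call. Of 34 cytosolic ribosomal protein genes, 31 were above 0, with 0 called and 0 at an unadjusted p under 0.05. The sign counts are therefore a description only.

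Matrix and signalling genes moved in both directions. On the extracellular matrix list 6 of 30 members rose and 4 fell, with a median of -0.0097. Among all tested genes 0.83% were called higher and 1.2% lower. Thbs2, an antiangiogenic thrombospondin gene, had 319, 318, 346 and 342 CPM in CM and 448, 436, 446 and 438 CPM in control libraries (log2 change -0.42 ± 0.038, adjusted p = 8.50e-08), and its effect differed at 28 h (0.43 ± 0.053, adjusted p = 4.01e-05). The CM libraries of Thbs2 were all below the control libraries. Among collagens, Col12a1 rose (178 ± 3.26 CPM in CM and 144 ± 6.16 CPM in control libraries; log2 change 0.30 ± 0.047, adjusted p = 0.000302). Col8a1 (0.21, adjusted p = 0.00353) and Col5a2 (0.16, adjusted p = 0.0183) rose too, and Col3a1 fell (1015 ± 46.0 CPM in CM and 1229 ± 55.7 CPM in control libraries; log2 change -0.28 ± 0.042, adjusted p = 0.000215). Postn, periostin, averaged 4.99 ± 0.731 CPM in CM and 3.00 ± 1.06 CPM in control libraries (log2 change 0.72 ± 0.18, adjusted p = 0.0307). Thbs1 also rose (0.19, adjusted p = 0.00254), and Timp1, a protease inhibitor (-0.24, adjusted p = 0.00258), and Lamb1 (-0.13, adjusted p = 0.0382) fell. The Postn call was lost without CM replicate 1, 3 or 4 or control replicate 2, 3 or 4. Postn also lost it without control replicate 3 and CM replicate 2 together or in a fit of only the 8 libraries (adjusted p 0.0510 to 0.146 over all of these). The Col5a2 call was lost without CM replicate 2, 3 or 4 or control replicate 1 or 2. Col5a2 also lost it without control replicate 3 and CM replicate 2 together (adjusted p 0.0729 to 0.0995 over all of these). The Lamb1 call was lost without CM replicate 1, 2 or 4 or control replicate 2 or 4. Lamb1 also lost it without control replicate 3 and CM replicate 2 together, with no filter on low counts or in a fit of only the 8 libraries (adjusted p 0.0623 to 0.143 over all of these).

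TGF-beta and BMP targets had 5 of 21 members higher and 1 lower, with a median of 0.10. Among all tested genes 0.83% were called higher and 1.2% lower. Tgfb2, one of the ligands, averaged 26.0 ± 1.76 CPM in CM and 19.6 ± 1.86 CPM in control libraries (log2 change 0.41 ± 0.076, adjusted p = 0.00254). Id2 (75.5 ± 3.45 CPM in CM and 62.3 ± 1.61 CPM in control libraries; log2 change 0.28 ± 0.056, adjusted p = 0.00573) and Id3 (0.42, adjusted p = 0.0110), direct BMP targets that block helix-loop-helix factors, and Ltbp2, a latent TGF-beta binding protein gene (0.23, adjusted p = 0.0172), rose too. Fst, an activin and BMP antagonist, averaged 6.72 ± 0.778 CPM in CM and 9.96 ± 0.505 CPM in control libraries (log2 change -0.57 ± 0.11, adjusted p = 0.00364). Grem1, a BMP antagonist outside the list and chosen after its values were seen, had 477, 474, 480.1 and 473 CPM in CM libraries, against 627, 608, 618 and 626 CPM in control libraries (log2 change -0.38 ± 0.034, adjusted p = 7.76e-08). Every Grem1 value in CM libraries was below every control value. The Fst call was lost without control replicate 3 and CM replicate 2 together (adjusted p 0.0518). The Id3 call was lost without CM replicate 2 or 4. Id3 also lost it in a fit of only the 8 libraries (adjusted p 0.0534 to 0.0564 over all of these). The Ltbp2 call was lost without CM replicate 3 or 4 or control replicate 1 or 2. Ltbp2 also lost it without control replicate 3 and CM replicate 2 together (adjusted p 0.0539 to 0.0868 over all of these). Without CM replicate 4, 3 members of the list were called higher. YAP/TEAD targets had 3 of 20 members higher and 0 lower with edgeR, against the same shares of all tested genes, and 1 lower with DESeq2. Ccn2, connective tissue growth factor, had 25.2, 22.8, 23.6 and 22.0 CPM in CM and 16.0, 17.7, 12.8 and 15.5 CPM in control libraries (log2 change 0.59 ± 0.093, adjusted p = 0.000332). Fstl1, a secreted glycoprotein gene, averaged 373 ± 7.47 CPM in CM and 322 ± 12.1 CPM in control libraries (log2 change 0.21 ± 0.040, adjusted p = 0.00309). F3, tissue factor, averaged 30.8 ± 1.27 CPM in CM and 25.7 ± 2.46 CPM in control libraries (log2 change 0.26 ± 0.065, adjusted p = 0.0338). The F3 call was lost without CM replicate 1, 2, 3 or 4 or control replicate 2, 3 or 4. F3 also lost it without control replicate 3 and CM replicate 2 together or in a fit of only the 8 libraries (adjusted p 0.0550 to 0.194 over all of these). Ccn4, a related matricellular gene outside the list, was chosen after its values were seen. It averaged 196 ± 4.89 CPM in CM and 161 ± 7.06 CPM in control libraries (log2 change 0.29 ± 0.040, adjusted p = 9.01e-05).

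Muscle genes with detectable levels were higher in a few cases. Tnnt2, cardiac troponin T, had 37.2, 39.6, 37.8 and 39.7 CPM in CM libraries, against 22.7, 24.6, 22.2 and 25.3 CPM in control libraries (log2 change 0.70 ± 0.057, adjusted p = 1.32e-08), and was higher at 28 h too (0.65 ± 0.055, adjusted p = 3.87e-08). It was the 1 member called among 13 tested sarcomere and natriuretic peptide genes, whose median was 0.20, and the count was 3 with DESeq2 and without CM replicate 2 or control replicate 3. Acta2, smooth muscle actin, had 507, 523, 491 and 529 CPM in CM and 379, 393, 393 and 402 CPM in control libraries (log2 change 0.39 ± 0.055, adjusted p = 9.54e-05). Myl9, a myosin light chain gene, averaged 14.4 ± 0.815 CPM in CM and 10.6 ± 0.930 CPM in control libraries (log2 change 0.44 ± 0.11, adjusted p = 0.0267). These were the 2 of 23 SRF-linked genes that passed, both higher. Among all tested genes 0.83% were called higher and 1.2% lower. Ryr1, the skeletal calcium release channel, averaged 1.89 ± 0.0737 CPM in CM and 0.997 ± 0.165 CPM in control libraries (log2 change 0.91 ± 0.21, adjusted p = 0.0138). Chosen after values were seen, Actn3, a skeletal actinin, averaged 12.1 ± 1.0 CPM in CM and 7.97 ± 1.20 CPM in control libraries (log2 change 0.60 ± 0.096, adjusted p = 0.000393). Fhl1 averaged 41.9 ± 3.31 CPM in CM and 34.1 ± 2.05 CPM in control libraries (log2 change 0.30 ± 0.059, adjusted p = 0.00384), and the determination genes Myod1 and Myf5 rose at the levels given above (log2 change 0.41 ± 0.092, adjusted p = 0.0123, and log2 change 0.34 ± 0.066, adjusted p = 0.00338). The Myod1 call was lost without CM replicate 2 or 4 or control replicate 1 or 4 (adjusted p 0.0547 to 0.0649). The Ryr1 call was lost without control replicate 2. Ryr1 also lost it without control replicate 3 and CM replicate 2 together (adjusted p 0.0534 to 0.0754 over all of these). The Myl9 call was lost without CM replicate 2, 3 or 4 or control replicate 1, 2 or 4. Myl9 also lost it without control replicate 3 and CM replicate 2 together (adjusted p 0.0566 to 0.0916 over all of these). Among cardiac ion channels, gap junctions and calcium handling genes 0 of 16 rose and 1 fell: Gja1, connexin 43, had 450.1, 428, 448 and 433 CPM in CM libraries, against 525, 517, 493 and 502 CPM in control libraries (log2 change -0.21 ± 0.035, adjusted p = 0.000505). Of 15 cardiac transcription factors tested, 0 passed in edgeR or DESeq2, with 2 at an unadjusted p under 0.05.

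Single genes linked to cytokine signalling fell; most of those below were picked because they were lower, so they give no direction for a group. Osmr, the oncostatin M receptor, had 71.2, 68.9, 77.9 and 72.5 CPM in CM libraries, against 103, 102, 101 and 99.8 CPM in control libraries (log2 change -0.48 ± 0.046, adjusted p = 1.36e-07). Stat3, its signal transducer, averaged 105 ± 6.10 CPM in CM and 127 ± 6.80 CPM in control libraries (log2 change -0.27 ± 0.045, adjusted p = 0.000865). The interleukin 1 receptor gene Il1r1 averaged 69.1 ± 2.25 CPM in CM and 84.2 ± 2.83 CPM in control libraries (log2 change -0.29 ± 0.042, adjusted p = 0.000161). The interleukin 4 receptor gene Il4ra averaged 48.3 ± 1.70 CPM in CM and 57.7 ± 3.29 CPM in control libraries (log2 change -0.26 ± 0.049, adjusted p = 0.00283). The CM libraries of each lay below all control libraries. Il33, an alarmin, averaged 286 ± 24.2 CPM in CM and 366 ± 13.1 CPM in control libraries (log2 change -0.36 ± 0.056, adjusted p = 0.000309). Ifitm1, an interferon-induced membrane gene, averaged 7.79 ± 0.586 CPM in CM and 13.6 ± 0.280 CPM in control libraries (log2 change -0.80 ± 0.095, adjusted p = 6.44e-06). Its relative Ifitm3 averaged 109 ± 5.73 CPM in CM and 154 ± 11.8 CPM in control libraries (log2 change -0.50 ± 0.047, adjusted p = 1.36e-07). Plek, pleckstrin, fell as well (33.9 ± 2.51 CPM in CM and 54.1 ± 1.96 CPM in control libraries; log2 change -0.68 ± 0.061, adjusted p = 7.76e-08). So did the phosphatase gene Ptpn22 (29.2 ± 2.43 CPM in CM and 42.1 ± 1.88 CPM in control libraries; log2 change -0.53 ± 0.058, adjusted p = 2.27e-06). Slpi, a secreted protease inhibitor, averaged 11.0 ± 0.667 CPM in CM and 15.9 ± 2.32 CPM in control libraries (log2 change -0.53 ± 0.092, adjusted p = 0.00101). Of 21 interferon response genes, 0 were called with edgeR or DESeq2, with 1 at an unadjusted p under 0.05. Of 20 chemokine and NF-kB targets, 0 were called with edgeR (7 at an unadjusted p under 0.05) and 1 with DESeq2. Over all tested genes 1586 had an unadjusted p under 0.05 and 2.03% were called.

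Other falls chosen after their values were seen concern guidance, neuronal and growth genes. Sema7a, a membrane semaphorin, had 50.5, 59.2, 51.0 and 54.1 CPM in CM libraries, against 77.5, 89.4, 91.2 and 82.8 CPM in control libraries (log2 change -0.67 ± 0.056, adjusted p = 2.48e-08), and differed at 28 h by 0.38 ± 0.080 (adjusted p = 0.0260). That difference was lost without CM replicate 3 of 28 h, control replicate 2 of 16 h or control replicate 1 or 4 of 28 h (adjusted p 0.0505 to 0.0900). Sema3e averaged 64.2 ± 1.51 CPM in CM and 81.8 ± 2.80 CPM in control libraries (log2 change -0.35 ± 0.046, adjusted p = 3.19e-05). The neurofilament gene Nefl averaged 17.8 ± 0.677 CPM in CM and 25.1 ± 0.998 CPM in control libraries (log2 change -0.50 ± 0.058, adjusted p = 5.01e-06). The neuronal pentraxin gene Nptx1 averaged 23.4 ± 1.04 CPM in CM and 35.6 ± 2.22 CPM in control libraries (log2 change -0.60 ± 0.068, adjusted p = 3.01e-06). Hmga2, a chromatin protein of embryonic growth, averaged 178 ± 6.83 CPM in CM and 231 ± 12.5 CPM in control libraries (log2 change -0.38 ± 0.042, adjusted p = 2.27e-06), and its effect differed between the times (0.32 ± 0.060, adjusted p = 0.00736). Thbd, thrombomodulin, averaged 21.8 ± 1.53 CPM in CM and 29.6 ± 2.39 CPM in control libraries (log2 change -0.44 ± 0.067, adjusted p = 0.000211). Serpinb2, a serpin gene, averaged 7.70 ± 0.979 CPM in CM and 11.1 ± 1.57 CPM in control libraries (log2 change -0.53 ± 0.10, adjusted p = 0.00353). At 28 h Thbd (log2 change -0.31, adjusted p = 0.00639) and Serpinb2 (-0.51, adjusted p = 0.000736) were lower too. Unlike Plat and Plau, neither was called in the difference between the times (adjusted p 0.880 for Thbd and 0.997 for Serpinb2 with edgeR). Among 31 secreted growth factors and cytokines 2 rose and 2 fell (4 fell with DESeq2), against 0.83% higher and 1.2% lower among all tested genes. Igfbp7, an IGF binding protein gene, averaged 89.0 ± 10.2 CPM in CM and 67.8 ± 6.66 CPM in control libraries (log2 change 0.39 ± 0.079, adjusted p = 0.00545). Angptl2, an angiopoietin-like gene, averaged 395 ± 16.0 CPM in CM and 340.1 ± 15.7 CPM in control libraries (log2 change 0.22 ± 0.042, adjusted p = 0.00318). Its effect differed between the times by -0.30 ± 0.059 (adjusted p = 0.0128), a call lost without CM replicate 2 or 4 of 16 h or without control replicate 3 and CM replicate 2 together (adjusted p 0.0532 to 0.0781). Ptn, pleiotrophin, averaged 41.7 ± 2.78 CPM in CM and 57.7 ± 2.68 CPM in control libraries (log2 change -0.47 ± 0.057, adjusted p = 8.15e-06). Igfbp4 averaged 4.88 ± 0.317 CPM in CM and 7.36 ± 0.733 CPM in control libraries (log2 change -0.59 ± 0.10, adjusted p = 0.000902).

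Metabolic and stress lists held 0 to 2 calls each, against 2.03% called among all tested genes. In a list of this size 1 call is close to what that share gives, so it is given for the gene and not for the list. Gstm1, a glutathione transferase gene, averaged 84.0 ± 3.24 CPM in CM and 70.4 ± 3.14 CPM in control libraries (log2 change 0.25 ± 0.044, adjusted p = 0.00119), and with Slc7a11, the cystine transporter that is also on the stress response list (137 ± 7.85 CPM in CM and 121 ± 4.95 CPM in control libraries; log2 change 0.17 ± 0.044, adjusted p = 0.0325), made 2 of 27 NRF2 genes higher. Hspa5, the ER chaperone BiP, had 811, 809, 799.9 and 850.0 CPM in CM libraries, against 935, 893, 941 and 934 CPM in control libraries (log2 change -0.18 ± 0.032, adjusted p = 0.00179), the 1 fall among 32 stress response genes. Plin2, a lipid droplet coat gene (98.7 ± 2.14 CPM in CM and 112 ± 2.80 CPM in control libraries; log2 change -0.18 ± 0.039, adjusted p = 0.0115), was the 1 of 20 fatty acid storage genes called, and the lysosomal protease gene Ctsl (582 ± 22.5 CPM in CM and 668 ± 22.9 CPM in control libraries; log2 change -0.20 ± 0.038, adjusted p = 0.00307) the 1 of 29 autophagy and lysosome genes, both lower. Egr1 was the 1 of 24 immediate early genes called, and was higher (60.4 ± 2.85 CPM in CM and 50.4 ± 3.02 CPM in control libraries; log2 change 0.26 ± 0.053, adjusted p = 0.00591). The Slc7a11 call was lost without CM replicate 1, 2 or 3 or control replicate 2, 3 or 4. Slc7a11 also lost it without control replicate 3 and CM replicate 2 together, with RLE size factors or in a fit of only the 8 libraries (adjusted p 0.050011 to 0.220 over all of these). The Egr1 call was lost without control replicate 3 and CM replicate 2 together (adjusted p 0.0678). With edgeR, 0 members were called of the p53, cholesterol, glycolysis and hypoxia, nuclear- and mitochondrial-encoded respiratory chain, heat shock, ribosome biogenesis and ribosomal protein lists, and with DESeq2 1 glycolysis gene and 1 heat shock gene were. At an unadjusted p under 0.05 there were 2, 3, 6, 0, 1, 2, 1 and 0 members of these lists, in that order.

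**Figure D5:**
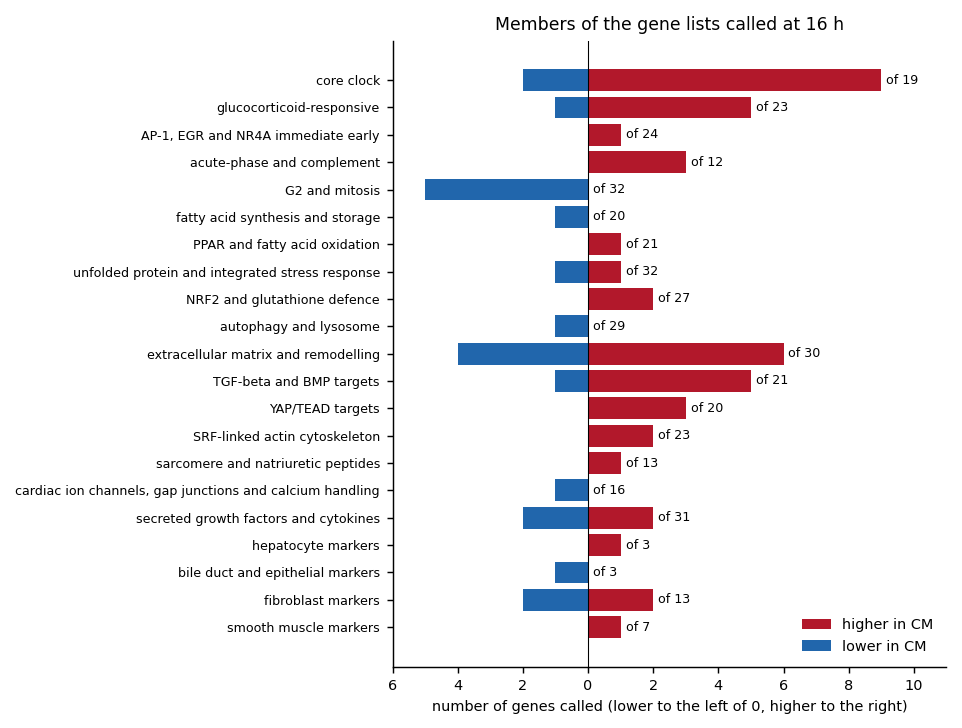
Bars give the number of members of each gene list called at 16 h with edgeR, lower in CM to the left of 0 and higher to the right, with the number tested beside each bar. Lists without a call are left out; the core clock list has 11 of 19 members called, and against the 2.03% called over all genes the bars are not a test.

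Markers of other cells were given beside these results. In bulk RNA, fewer cells of a type and less RNA per cell cannot be told apart. Of 25 hepatocyte markers 22 were under 1 CPM and 13 had 0 counts at 16 h; their summed level was 55.7 to 61.9 CPM in CM libraries, against 50.4 to 57.2 CPM in control libraries, and Ass1, a urea cycle gene of many cells, was called higher (38.9 ± 1.5 CPM in CM and 31.3 ± 1.97 CPM in control libraries; log2 change 0.32 ± 0.077, adjusted p = 0.0262). The Ass1 call was lost without CM replicate 1, 3 or 4 or control replicate 1, 2 or 3. Ass1 also lost it without control replicate 3 and CM replicate 2 together (adjusted p 0.0544 to 0.117 over all of these). Bile duct and epithelial markers summed to 1942 to 2083 CPM in CM and 2521 to 2733 CPM in control libraries, most of it in every library Spp1, osteopontin, a secreted phosphoprotein with 1976, 1818, 1969 and 1906 CPM in CM libraries, against 2628, 2399, 2463 and 2482 CPM in control libraries (log2 change -0.38 ± 0.044, adjusted p = 5.01e-06). Fibroblast markers summed to 8417 to 9074 CPM in CM and 8235 to 9469 CPM in control libraries, with Pdgfrb (130.3 ± 7.02 CPM in CM and 109 ± 2.36 CPM in control libraries; log2 change 0.25 ± 0.046, adjusted p = 0.00199) and Postn higher and Col3a1 and Dcn lower among 13 tested. Of 12 immune markers 11 were under 1 CPM. The 12 summed to 2.56 to 3.15 CPM in CM and 1.69 to 2.28 CPM in control libraries. Most of that was Cd68, at 2.54 ± 0.163 CPM in CM and 1.64 ± 0.180 CPM in control libraries. Cd68 was not called with edgeR (log2 change 0.63 ± 0.17, adjusted p = 0.0528). Smooth muscle markers summed to 985 to 1085 CPM in CM and 810.3 to 917 CPM in control libraries, with Acta2 called, and endothelial markers to 15.0 to 18.6 CPM in CM and 14.8 to 17.2 CPM in control libraries. Among all tested genes 0.83% were called higher and 1.2% lower. The part of other cells in the results was not tested.

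Values in the AML12 cells that condition such medium stand side by side, from their own table. Of the 294 genes called in HL-1, 206 were tested in AML12, and 143 of these were called there for DEX against control at 17 h (69.4% of the 206 and 2.99% of the 4786 AML12 calls among genes tested in both lines), where 39.0% of the 12272 genes tested in both were called, and 38.4% of all genes tested in AML12. Of the 143, 52 had the same direction in both lines and 91 the opposite. For clock genes the AML12 log2 differences were -1.77 ± 0.11 SE for Per2, -3.22 ± 0.13 for Per3, -3.88 ± 0.18 for Dbp, -2.75 ± 0.058 for Tef, -1.63 ± 0.072 for Nr1d2, -1.01 ± 0.12 for Cry1, 0.31 ± 0.049 for Clock and 0.97 ± 0.083 for Arntl, all called. Each of these 8 has the opposite sign to its value in HL-1 at 16 h. Per1, given above, and Bhlhe41 (0.33 ± 0.10, adjusted p = 0.0155) have the same sign in both lines, and Ciart was not called in AML12 (-0.31 ± 0.24, adjusted p = 0.323). The hours of the lines differ, and the lines were counted separately.

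Over the promoters matched by symbol, E-boxes within 250 bases of the start were held by 19 of 94 genes called higher (20.2%) and by 10 of 128 called lower (7.81%), beside 9.69% of the 10137 tested genes with a promoter in the table. Of the 9 core clock genes that rose, 8 had a promoter, and Tef, Cry1, Ciart, Per1 and Bhlhe41 held an E-box. D-boxes were held by 3 of the 94 (Per3, Coq10b and H6pd) and by 0 of the 128, beside 0.552% of tested genes. Fkbp5, Tgfb2 and Ass1 were among the other higher genes with an E-box. These shares describe letters in a window only.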

How the data were processed

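Per the labels' protocols, RNA was isolated in TRIzol and a NEBNext Ultra II kit was used for the libraries. The authors deposited whole-number counts per gene, 1 table for each cell line. FastQC 0.11.8, STAR and the builds mm10 and GRCm38 are named in the submitters' processing notes. No source used here gives the counting tool, its strand setting or the annotation, so overlapping and antisense genes cannot be told apart.

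Groups came from the labels. Genes were filtered with filterByExpr over the 16 HL-1 libraries (14450 of 55414 kept), scaled by TMM and fitted with the quasi-likelihood method of edgeR 4.0.16 (R 4.3.3) with 1 mean per group. Adjusted p-values are Benjamini-Hochberg over all tested genes, and each SE was taken as the absolute log2 change over the square root of its F statistic. AML12 was fitted separately. Alternatives used DESeq2 1.42.0 and limma 3.58.1. The fitting was tested on simulated data.

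The comparison, the gene lists and the tests were chosen with earlier results of these data known. Named genes are the 12 largest rises and 12 largest falls among called genes of at least 1 CPM whose groups did not overlap, all core clock genes, up to 4 called genes of smallest p in each of the 35 lists, and the 6 largest differences between the times on each side. These gave 75 genes reported here, 68 of them called at 16 h; some others are not reported here. A further 70 genes, 37 of them called, were chosen after their values were seen. The precision rests on the 4 libraries per group, on the spread between them and on totals of 15.7 to 19.3 M counts in the 8 libraries.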

Additional observations from a re-analysis of the deposited data

Results flagged for a closer look

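The effect of CM differed between the times for these genes by a test of the difference itself, given as the 28 h effect minus the 16 h effect on the log2 scale with the adjusted p of edgeR in brackets. Differences below 0 were found for Lcn2 -2.99 (0.00464), Serpina3n -2.29 (0.00728), Per3 -1.49 (4.18e-10), Per2 -1.66 (1.51e-10) and Dbp -1.25 (0.00400). Further ones below 0 were Tef -1.11 (1.66e-12), Cry1 -0.95 (4.52e-06), Cry2 -0.58 (0.0447), Nr1d2 -0.69 (1.38e-06) and Angptl2 -0.30 (0.0128). To these were added Wee1 -0.52 (0.00205), Coq10b -0.70 (0.000502), Ccl2 -0.68 (0.00204), Cxcl1 -0.53 (0.000303) and Ptgs2 -0.52 (0.000109). Differences above 0 were found for Arntl 1.39 (4.90e-11), Thbs2 0.43 (4.01e-05), Plau 0.50 (0.000440), Spon2 0.52 (0.00221), Dusp27 0.56 (0.0260) and Tinagl1 0.66 (0.0178). Further ones above 0 were Plat 0.76 (6.13e-05), Il1r1 0.35 (0.00252), Hmga2 0.32 (0.00736), Sema7a 0.38 (0.0260) and Lox 0.33 (0.000440). Among all tested genes, 0.277% were called in this difference.

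In some groups of 4 libraries at 16 h, 1 library lay far from the others, by more than Dixon's critical share of the range for 4 values. Chance marks about 1 in 20 groups in this way. With 75 genes named by the rule and 70 others, each in a CM and a control group, about as many cases as those below are expected by chance. Lcn2 had 0.981 CPM in CM 16 h replicate 1, against 2.08 to 2.29 CPM in the other 3. Ryr1 had 0.751 CPM in control 16 h replicate 2, against 1.06 to 1.097 CPM in the other 3. Rgs16 had 6.55 CPM in control 16 h replicate 4, against 8.52 to 8.82 CPM in the other 3. Per1 had 20.0 CPM in control 16 h replicate 1, against 24.3 to 25.1 CPM in the other 3. Cry2 had 11.0 CPM in control 16 h replicate 4, against 13.0 to 13.3 CPM in the other 3. Hspa5 had 893 CPM in control 16 h replicate 2, against 934 to 941 CPM in the other 3. Fst had 5.56 CPM in CM 16 h replicate 2, against 6.97 to 7.20 CPM in the other 3. Angptl2 had 317 CPM in control 16 h replicate 1, against 345 to 351 CPM in the other 3. Igfbp7 had 77.8 CPM in control 16 h replicate 3, against 64.2 to 65.2 CPM in the other 3. Dusp27 had 11.7 CPM in control 16 h replicate 1, against 10.1 to 10.4 CPM in the other 3. Tinagl1 had 33.6 CPM in control 16 h replicate 1, against 44.9 to 46.3 CPM in the other 3. Nptx1 had 24.9 CPM in CM 16 h replicate 3, against 22.7 to 23.0 CPM in the other 3. Sema3e had 77.6 CPM in control 16 h replicate 3, against 82.9 to 83.7 CPM in the other 3. Spc25 had 99.6 CPM in CM 16 h replicate 2, against 107 to 108 CPM in the other 3.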

How the results depend on the processing

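The 294 calls at 16 h were 298 with RLE size factors or with totals in place of TMM, 265 with limma-voom, 359 with DESeq2, 370 with no filter on low counts, 205 in a fit of only the 8 libraries and 288 with counts thinned to 1 depth (267 shared). Leaving out 1 library at a time gave 202 to 280 calls at 16 h, 170 to 334 at 28 h, 32 to 55 in the difference between the times and 4812 to 5569 in AML12. The 40 genes of that difference were 68 with DESeq2 and 97 with no filter, and the cause was not tested. With RLE size factors 107 calls were higher and 191 lower, against 120 and 174. Of 105 called genes named in the text, 76 were called under each of the 17 alternatives at 16 h and the others are given with their losses. The alternative without control replicate 3 and CM replicate 2 was chosen after seeing the data.

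Libraries of the same replicate number showed no sign of pairing: correlations of their deviations from the group means were 0.121, 0.0245, -0.119 and -0.000134 for numbers 1 to 4. Between unlike numbers they ran from -0.187 (CM replicate 2 with control replicate 1) to 0.161 (CM replicate 2 with control replicate 3). Such values cannot exclude a pairing, which the labels do not give. With replicate as a block 295 genes were called at 16 h, 268 of them shared.

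Signs changed in genes without a call. Hlf at 16 h had a log2 change of 0.047 without both libraries that stand apart, and -0.23 to 0.056 without 1 library. Clock at 28 h was 0.011 with only those 8 libraries, 0.012 thinned and 0.0085 with totals, and -0.036 to 0.033 without 1 library. At 28 h, leaving out 1 library gave -0.037 to 0.039 for Nr1d1, -0.048 to 0.0083 for Nfil3 and -0.062 to 0.020 for Bhlhe40. Depth limits what can be said of genes under 1 CPM.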
